A study of Mus musculus with 16 samples.

Results

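Cytosolic ribosomal protein genes are described here in single LSK cells, the lineage-negative, Sca1+ and Kit+ fraction of mouse bone marrow in which blood stem cells and multipotent progenitors are found. The members are all rows named Rpl or Rps with a number and an optional letter, digit or final l, x or y, together with Rplp0, Rplp1, Rplp2 and Rpsa; names with -ps, Rps6k or Gm were left out. This gave 89 of 52542 gene rows, 53 named for the large and 36 for the small subunit. GENCODE types 5 of the 89, Rps3a2, Rps3a3, Rpl6l, Rps4l and Rps12l1, as processed pseudogenes; they stayed in because the rule goes by name. The rule itself uses no measured value, though it was set with earlier results of these data known. The mice were C57BL/6J; lethally irradiated CD45.1/CD45.2 hosts had been given CD45.1 control and CD45.2 Regnase-1-/-Regnase-3-/- fetal liver cells in a 1:1 mix, and LSK cells were taken 4 weeks later. Each of the 16 libraries held 384 wells sorted for single cells and was sequenced by MARS-seq, which tags the 3' end of every captured mRNA with a molecular identifier, so that a count (UMI) stands for a captured molecule. All 16 libraries carry 1 label, and neither a genotype nor a mouse is given for a library or a well. Control and double knockout cells are therefore not compared here, and the p-values measure the spread between libraries, which may share mice.

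Every cytosolic ribosome holds a small subunit, which reads the mRNA, and a large subunit, which joins amino acids. Their protein genes are among the most transcribed genes of a growing cell, and their mRNAs commonly start with a run of pyrimidines (a terminal oligopyrimidine tract) through which the mTOR kinase pathway controls their translation. Mammalian genomes also carry very many processed pseudogenes of these genes, copies of the spliced mRNA that are nearly identical in sequence. In blood, inherited defects of Rps19, Rps24, Rpl5 or Rpl11 are known causes of Diamond-Blackfan anaemia.

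The bases on both sides of the listed start are shown for 5 members. Rps24, Rpl4 and Rpl26 are the most abundant members with a start in the RefSeq table used (GRCm38.p6). Rpl22l1 and Rps27l are paralogs that differ between cells in the results. Each window holds 30 bases of the coding strand, 5′ to 3′, the listed start is base 16, and capitals mark the longest run of C or T within the window. Where RefSeq lists several starts, the start with the longest run nearby was taken. The windows lie at chr14:24490663-24490692 (+), chr9:64173372-64173401 (+), chr11:68901551-68901580 (+), chr3:28805493-28805522 (+) and chr9:66946071-66946100 (+), in this order.
Rps24: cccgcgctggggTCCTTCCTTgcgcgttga
Rpl4: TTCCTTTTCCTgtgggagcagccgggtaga
Rpl26: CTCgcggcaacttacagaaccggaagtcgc
Rpl22l1: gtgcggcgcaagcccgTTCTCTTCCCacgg
Rps27l: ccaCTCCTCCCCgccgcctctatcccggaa

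In Rps24 the run spans the listed start and in Rpl22l1 it follows directly after it, whereas the longest run of Rpl26 within its window has 3 bases. In Rpl4, Rpl26 and Rps27l the capitals lie wholly before the listed start, outside the mRNA by that annotation. Runs cut by the window edge can be longer: within 20 bases of the start, the longest run had 4 bases in Rpl26 and 14 in Rpl4. A run of at least 8 bases that are C or T, on the coding strand and within 20 bases on either side of a listed start, was present in 30 of the 64 members with a listed start (46.9%). The same search found it in 4965 of all 27025 genes with a listed start (18.4%). The median longest run was 7 bases in the members and 5 in all genes. These matches describe letters near annotated starts, and 25 members had no listed start.

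After filtering, 5157 cells remained, 295 to 345 in a library, with a median of 1146 to 1993 UMIs a cell. Of the LSK gate genes, Kit had a UMI in 25.6% and Ly6a, which encodes Sca1, in 26.8% of cells, while the lineage genes Cd3e and Ly6g were at 0. Itgam, which encodes the lineage antigen CD11b, had a UMI in 4.01% of cells. In wider lists, 4 of 6 T and NK cell genes and 5 of 6 mature B cell genes had a UMI in kept cells. So did 9 of 10 mature neutrophil and macrophage genes, 6 of 7 erythroid and platelet genes and 5 of 7 endothelial and stromal genes. The genes at 0 in these lists were Cd3e, Cd3d, Cd79a, Ltf, Alas2, Cdh5 and Lepr. The source of the UMIs on these lists was not tested. The well table gives sequencing batch SB341 for libraries 2 to 10 and SB343 for libraries 11 to 16, and has no entry for library 1. No well name was shared between libraries. Wells listed as empty held 801 UMIs in 60 wells, and members made up 10.7% of them, close to their share in cells.

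Members took 11.1% of all UMIs of kept cells. The share was 10.5% in the lowest library, 11.02% at the median and 11.8% in the highest, with 5.38% to 6.36% from the large and 4.91% to 5.60% from the small subunit. Of the 89 rows, 87 had at least 1 UMI, and Rpl10l and Rpl41 were at 0 on their own rows in every library. The share was higher in cells with few UMIs: its median over libraries was 11.6% in cells of 500 to 1000 UMIs, 11.4% from 1000 to 2000, 10.9% from 2000 to 4000 and 10.5% at 4000 or more. Median cell depth is therefore given beside each comparison of shares between cells below.

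Levels are given as counts per 1000000 UMIs of a library (CPM); a molecule is counted once whatever its length, so no length was divided out. Rps24, a small-subunit protein, had the highest level, with 5451 CPM in the lowest, 6105 in the median and 7243 in the highest library. Also among the 8 highest over all cells were Rplp1 at 5642 CPM, Rpl32 at 4675, Rpl4 at 4034, Rpl26 at 3883, Rps19 at 3626 and Rps20 at 3612. All 8 had a UMI in at least 96.7% of cells. Rplp0, Rplp1 and Rplp2 form the stalk of the large subunit, which recruits elongation factors. Their own rows stood at 3365, 5642 and 2182 CPM, and Rplp2 was the most variable of them, from 1418 to 3410 CPM over the libraries.

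At the other end, 10 members had fewer than 100 UMIs in all. Among the lowest with any were Rpl3l with 1 UMI, Rpl3 with 4, Rps12l1 with 11 and Rpl17 with 12. Rpl3 and Rpl17 encode core proteins that every ribosome carries, and Rpl3l is known from skeletal muscle and heart. The low values of Rpl3 and Rpl17 belong to their own rows only. Rows of their processed pseudogenes held 11372 UMIs for Rpl3 and 20766 for Rpl17. Rpl41 likewise had 0 UMIs on its own row but 7349 on 4 pseudogene rows, 6561 of them on Gm10180 (100% identical).

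The files list pseudogenes as rows of their own, and 276 rows carry a member's name with -ps. Together with rows whose annotated GENCODE sequence matched a member's transcripts (at least 85% identity over at least 50% of the row), 1012 rows were assigned to a parent gene, not counting the 5 pseudogene rows that are members. The median identity was 94.7%, and of the 219 -ps rows that could also be matched by sequence, 217 went to the parent in their name. These rows held 949747 UMIs, 45.1% of all UMIs of the gene families, and members with their pseudogene rows took 20.2% of all UMIs. Of the 89 members, 81 had such rows, and the median member kept 57.5% of its family on its own row. The sources used here do not say how reads of identical copies were allotted, so the level of a single row is uncertain wherever such copies exist.

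The split ran from one extreme to the other. Rpl8, a large-subunit protein that lies close to the site where peptide bonds form, had 24840 UMIs on its own row and 161 on its pseudogene row. Rps13 had 62 UMIs of its own against 12577 on Rps13-ps1 (99.6% identical), Rpl28 had 758 against 17185 on Rpl28-ps3, and Rpl39 had 747 against 18498 on Rpl39-ps. For Rpl11, a sensor of ribosome assembly that binds Mdm2, 2392 UMIs stood against 16010 on Gm10036, which is 99.3% identical. In all, 22 members kept less than 10% of their family on their own row and 18 kept more than 90%. Among the latter, Rpl36al, Rpl39l, Rpl3l, Rps3a2, Rps3a3, Rpl6l and Rps12l1 have no assigned pseudogene and stand at 100% by definition. The members typed as pseudogenes could be given no rows by sequence. The median given above includes all of these. Summed as families, Rps24 remained highest, at 11394 CPM.

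**Figure D1:**
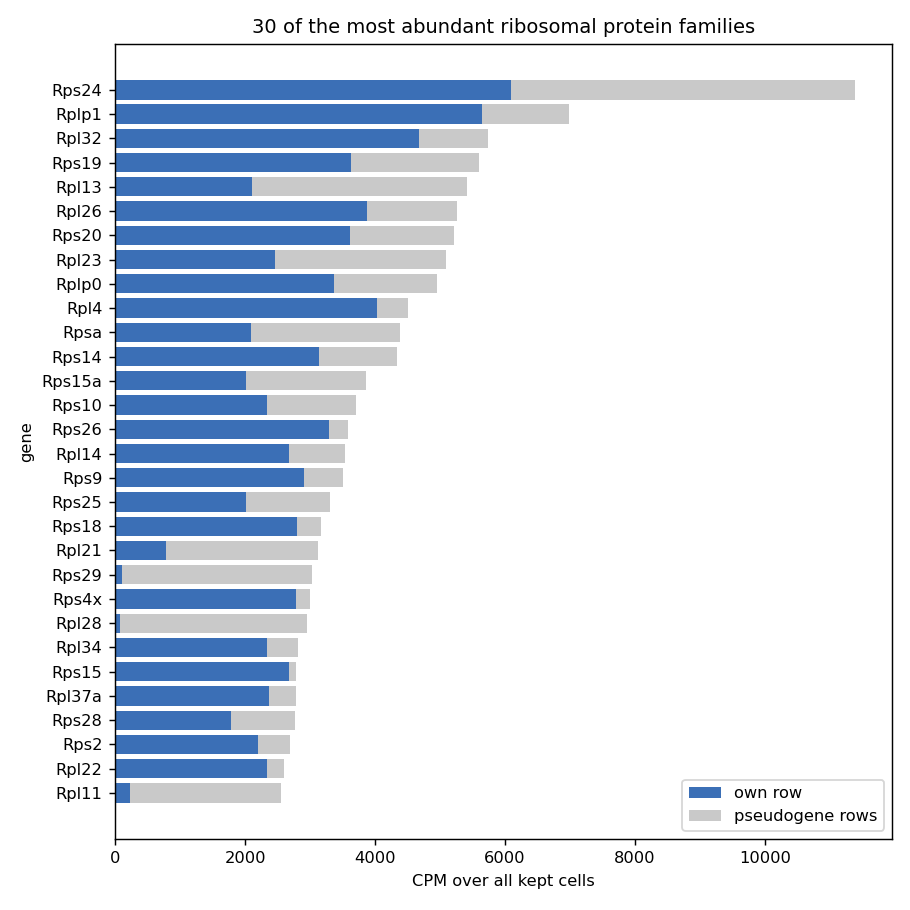
Bars give CPM over all kept cells (horizontal axis) for 30 of the most abundant ribosomal protein families (vertical axis), with the gene's own row in blue and its pseudogene rows in grey. Rps24 is the longest bar at 11394 CPM, and the blue part ranges from almost the whole bar (Rps15) to a thin edge.

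Members also differed in how even they were over the 16 libraries. The variance over libraries divided by the variance that counting alone would give grows with a gene's count at the same relative spread, so it is given beside the coefficient of variation and is not compared with other genes. Among all members with a UMI, the 5 largest ratios included 371 for Rpl13 (coefficient of variation 52.9%), 190 for Rps3 (58.2%) and 153 for Rpl10 (37.6%). The smallest were 0.526 for Rps23, 0.792 for Rps12l1 and 0.900 for Rpl3l, which had only 934, 11 and 1 UMIs. Rplp0 varied little for its height, from 3074 to 3661 CPM with a coefficient of variation of 5.04%.

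Rpl13, a large-subunit protein (chr8:123102350-123105244, GRCm38), had between 2254 and 3428 CPM on its own row in libraries 1 to 10 and between 294 and 982 in libraries 11 to 16. The values of the second span lay wholly below the first. Rps3, a small-subunit protein at the mRNA entry (chr7:99477896-99483738), showed the opposite: 294 to 689 CPM in libraries 1 to 10 and 1322 to 1629 in libraries 11 to 16. Both also differed within libraries 1 to 10, a split made after the values were seen. Rpl13 had 3035 to 3428 CPM in libraries 1 to 5 and 2254 to 2693 in libraries 6 to 10. Rps3 had 294 to 474 and 592 to 689 CPM, so neither followed the batch entry alone. For Rpl11 (chr4:136028265-136053428), libraries 1 to 8 had 255 to 537 CPM, while libraries 9 and 10 had 78.6 and 67.6 and libraries 11 to 16 had 27.2 to 60.0. Libraries 9 and 10 are of the same sequencing batch as libraries 2 to 8, so its level on this row did not follow the batch entry alone. With its pseudogene rows added, Rpl11 stood at 2223 to 2984 CPM in all 16 libraries, and its coefficient of variation went from 83.0% to 9.42%. Adding the rows did not do so in general: over the 70 members with at least 500 UMIs and an assigned pseudogene row the median coefficient of variation was 18.8% on own rows and 16.3% for families, and it was lower for the family in 42.

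**Figure D2:**
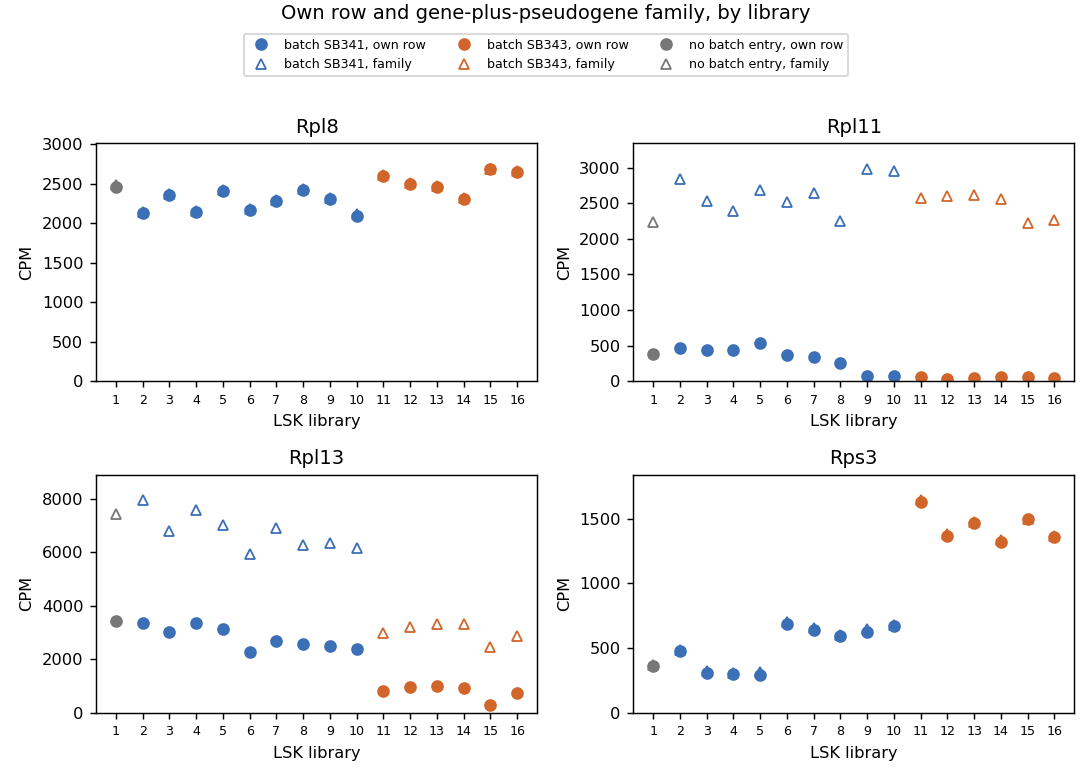
CPM (vertical axis) of Rpl8, Rpl11, Rpl13 and Rps3 in each of the 16 LSK libraries (horizontal axis), with filled circles for the own row, open triangles for the family with its pseudogene rows, and colour for the sequencing batch. The family of Rpl11 stays between 2223 and 2984 CPM while its own row falls from 537 to 27.2, whereas for Rpl13 and Rps3 row and family change together.

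Libraries of the 2 sequencing batches (SB343, n = 6; SB341, n = 9) were compared with edgeR's quasi-likelihood test on summed UMIs, with Benjamini-Hochberg adjustment over all genes tested at 0.05, a rule used for all calls below. Of 79 members tested, 42 were called, 18 higher and 24 lower in SB343; over all genes 12.6% were called, 1012 of 8017 (4.52% higher, 8.11% lower). The CPM values of the 2 batches did not overlap for 28 of the 79 members, against 5.48% of all genes tested. Members were more often abundant: 66 had at least 1000 UMIs, as did 1558 other genes. At the same relative change, rows with more UMIs are called more readily, here and in the comparisons below. Genes of like count were not compared. Batch may coincide with differences between libraries that the labels do not give, such as mouse or sorting day, and these cannot be told apart. Leaving out each library in turn left 37 to 43 members called, and scaling by total counts gave 23 higher and 20 lower.

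Among large-subunit members, Rpl11 fell by 2.89 (SE 0.36) on the log2 scale, Rpl13 fell by 1.93 (SE 0.17), Rpl36al fell by 1.72 (SE 0.13) and Rpl6 fell by 1.37 (SE 0.15), with adjusted p from 8.57e-11 to 5.59e-07. Rpl10, which joins the large subunit late in its maturation, fell by 1.27 (SE 0.11). Rpl36a, Rpl12, Rpl7a and Rpl37 fell too, with log2 fold changes from -1.23 to -0.91. In the small subunit Rps27a, made as a fusion with ubiquitin, fell by 1.42 (SE 0.15), the pseudogene row Rps3a3 fell by 1.07 and Rps28 fell by 0.78. Among those higher in SB343 was Rps3, by 1.41 (SE 0.16). Rpl36 and Rps7 were higher by 1.34 and 1.24. Rpl19, Rps12, Rpl13a, Rps3a1, Rpl27a, Rpl28 and Rpl39 were also called higher, by 3.17, 1.98, 1.70, 1.55, 0.79, 0.78 and 0.75, from rows that all kept less than 10% of their family. The call of Rpl39 was lost without library 3, 4, 5, 6, 7, 8, 11, 13, 14 or 15 (log2 0.63 to 0.78, edgeR adjusted p from 0.055 to 0.129).

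With pseudogene rows summed into their gene, an alternative chosen after the data were seen, 48 of 85 members were called (6 higher, 42 lower) and 10.4% of all genes. Of the 42 members called on their own row, 31 were called as families, 26 of them in the same direction. Rps3a1, Rps7, Rpl28 and Rpl39 were among those called higher on their own row and lower as families, for Rps7 from 1.24 to -0.72. The Rps3a1 family leaves out the pseudogene rows Rps3a2 and Rps3a3 (8491 and 3709 UMIs), which are members by name. Rpl19, Rps12 and Rpl13a stood at -0.21, -0.25 and -0.25 as families and did not pass the test (edgeR adjusted p = 0.147, 0.187 and 0.101). The Rps7 family held 1003 to 1065 CPM in SB343 and 1255 to 2158 in SB341, while the own row held 264.8 to 376 and 90.5 to 178. Rps3 (1.38), Rpl35 (0.61), Rplp2 (0.33), Rpl36 (0.32) and Rpl14 (0.31) were among the 6 families called higher.

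The members' summed share did not differ detectably between the batches: it was 10.9% ± 0.297 (SD, n = 6) in SB343 and 11.2% ± 0.498 (SD, n = 9) in SB341 (permutation test, two-sided, p = 0.204, adjusted over 6 share tests 0.306). With all assigned pseudogene rows the shares were 18.3% ± 0.761 and 21.5% ± 1.19, a difference of -3.15 percentage points (permutation p = 0.0004, adjusted 0.0012). The ranges, 17.7% to 19.4% and 19.7% to 24.01%, did not overlap. The other RNA of these libraries made up the remainder, so a lower share and more of other RNA are the same measurement.

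**Figure D3:**
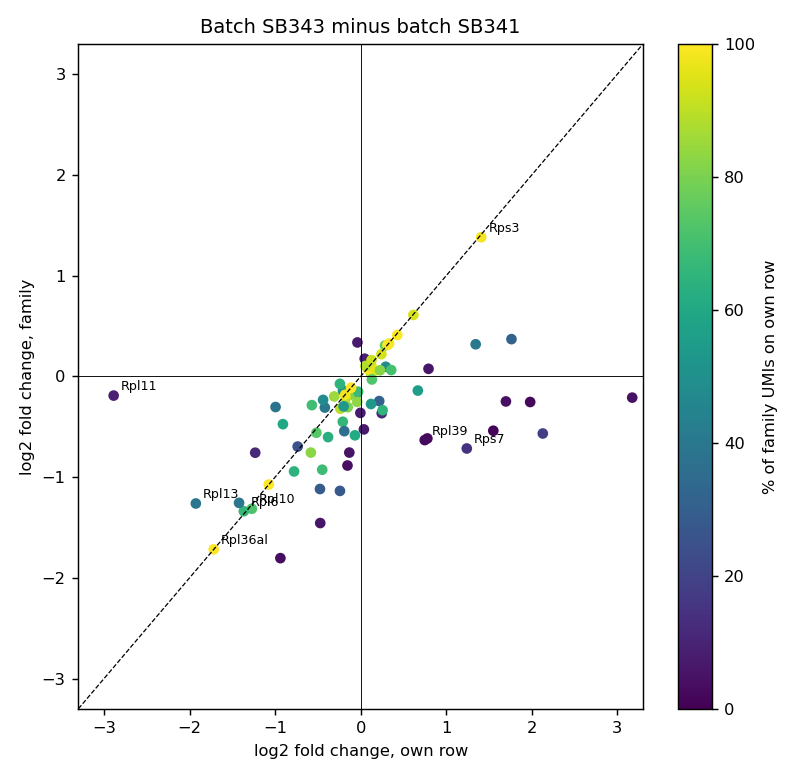
Each of the 79 points is a member, with its log2 fold change between batches SB343 and SB341 on its own row (horizontal axis) against that of the family with its pseudogene rows (vertical axis), coloured by the percentage of family UMIs on the own row. Rps3, Rpl36al and other members with most UMIs on their own row lie on the dashed line of equal values, and Rpl11 and Rps7 lie far from it.

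Because the libraries carry no group, the members were next compared between kinds of cell within each library. A cell was placed in a gate by at least 2 UMIs from a list of marker genes and more than 2 times as many as from the other 3 lists together; no ribosomal protein gene was in a list. The stem gate held 754 cells (median 1538 UMIs), the granule gate, set by the azurophil granule genes Mpo, Prtn3, Ctsg and Elane and by Ms4a3, 515 (2175), the lymphoid gate, led by Dntt and Ighm, 450 (1681), and the megakaryocyte and erythroid gate, led by Car1, Apoe and Pf4, 211 (1853). Adgrg1 gave 61.7% and Hlf 21.3% of the UMIs of the stem list in that gate, so its cells are chiefly Adgrg1+ or Hlf+ cells. UMIs were summed per library and gate, for libraries with at least 10 cells in both gates, and the library was kept as a block. Since the gates use the cells' own transcripts, any gene that varies with the lists differs between gates through that choice, and p-values overstate the evidence to a degree that is not known.

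The members' share was higher in the granule gate than in the stem gate of the same library. It was 11.4% ± 0.567 (SD, n = 15) against 10.9% ± 0.473, higher in 14 of 15 libraries, with a mean difference of 0.487 points (SD 0.411; exact paired permutation test, two-sided, p = 0.000305, adjusted 0.000916). The lymphoid gate also had more than the stem gate, 11.3% against 10.9%, in 11 of 16 libraries (0.392 points, SD 0.594, exact permutation p = 0.0174, adjusted 0.0349). Between granule and lymphoid gates the difference was 0.0838 points (SD 0.633; n = 15, exact permutation p = 0.612). For the megakaryocyte and erythroid gate it was -0.137 points against the stem gate (SD 0.365; n = 10, exact permutation p = 0.279, adjusted 0.335). Median cell depth in these sums was 2244 UMIs for granule against 1482 for stem cells, 1562.5 for lymphoid against 1494 for stem cells, 2244 for granule against 1568 for lymphoid cells, and 1772 for megakaryocyte and erythroid against 1426.5 for stem cells. The mitochondrial share was 10.3% in granule against 11.2% in stem cells. The part of depth and of the mitochondrial share in these differences was not tested beyond the alternatives that follow.

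Several alternatives ended these calls. With gates set on cells thinned to 500 UMIs the differences from the stem gate were 0.159 points for granule (7 of 13 libraries higher, adjusted p = 0.497, exact permutation test) and 0.0524 for lymphoid cells (9 of 14, adjusted p = 0.777). In cells of 1000 to 3000 UMIs the granule difference was 0.540 points (8 of 11, adjusted p = 0.0566) and the lymphoid one 0.573 (10 of 12, adjusted p = 0.00781). With Adgrg1 taken out of the stem list, a choice made after its share was seen, the granule difference was 0.521 points (8 of 10, adjusted p = 0.0586). Leaving out library 3, 7, 8, 9, 10, 12, 13 or 15 ended the lymphoid call at differences of 0.312 to 0.387 points (adjusted p up to 0.0697). Without the mitochondrial genes in the total, the share of the megakaryocyte and erythroid gate was lower than that of the stem gate by 0.330 points, in 9 of 10 libraries (exact permutation adjusted p = 0.0117); the mitochondrial share itself was 9.44% against 10.8%. Within SB341 the granule difference was 0.569 points (n = 8) and within SB343 0.446 (n = 6), and the lymphoid one 0.291 (n = 9) and 0.632 (n = 6); the smallest p that 6 pairs allow is 0.03125. None of 5 tests of these differences between batches passed after adjustment, the smallest unadjusted exact permutation p being 0.213.

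**Figure D4:**
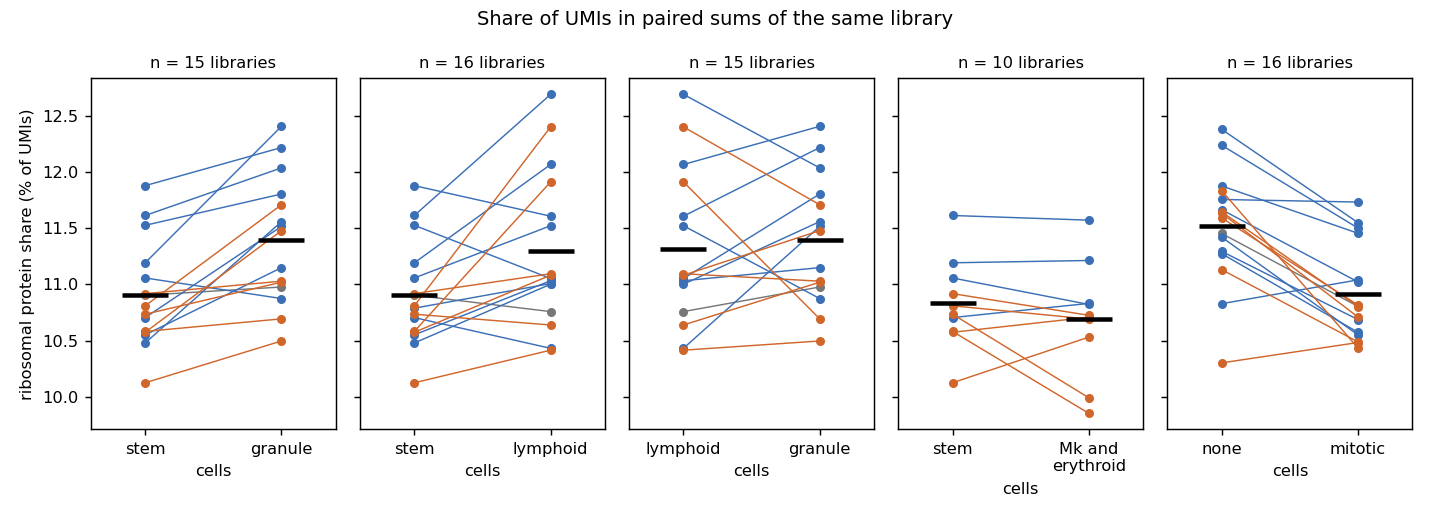
Each line joins the ribosomal protein share of UMIs (vertical axis, percent, not starting at 0) of the cells named on the horizontal axis within 1 library, coloured blue for batch SB341, orange for SB343 and grey for the library with no batch entry; black bars are means. The share is higher in the granule gate in 14 of 15 libraries and lower in cells with mitotic transcripts in 14 of 16.

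Rps27l, a paralog of Rps27 known as a p53 target (chr9:66946086-66949516), was the member that rose in 3 of the 4 gate comparisons. Its level in the stem gate was 258 CPM in the lowest, 371 in the median and 550 in the highest of 15 libraries, and in the granule gate 329, 501 and 816. The ranges overlapped, and within a library it was higher in the granule gate in 14 of 15. The log2 fold change was 0.44 (SE 0.11, edgeR adjusted p = 0.00238) against the stem gate and 0.38 (SE 0.12, adjusted p = 0.0382, 13 of 15 libraries) against the lymphoid gate. In the megakaryocyte and erythroid gate it ranged from 193 to 879 CPM with a median of 610 against 331, a change of 0.67 (SE 0.16, adjusted p = 0.00119, 9 of 10 libraries). Its pseudogene rows held 112 UMIs against 4759 of its own. Leaving out each library in turn kept both rises over the stem gate past the threshold, whereas 8 of 15 such fits ended the call against the lymphoid gate. Of all alternatives, 4 of 29 ended the granule call and 3 of 23 the megakaryocyte and erythroid call over the stem gate. Gates on cells thinned to 500 UMIs called no member higher in granule against stem cells. In cells of 1000 to 3000 UMIs no member was called in either comparison. Granule against stem cells had no call without the replicate block. Rps27 itself was not tested on its own row in these gates; as a family it changed by -0.03 between granule and stem gates (SE 0.16, adjusted p = 0.930) and by -0.52 between the megakaryocyte and erythroid and the stem gate (SE 0.25, adjusted p = 0.116).

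In granule against stem cells 5 of 61 members were called, where 11.2% of all genes were (5.19% higher, 5.99% lower). Rps27l was the only one to rise. Rpl21 fell by 0.22 (SE 0.07, lower in 14 of 15 libraries), the pseudogene row Rps3a2 by 0.22 (SE 0.08), Rps9 by 0.17 (SE 0.05) and Rps14 by 0.15 (SE 0.05). Scaling by total counts ended these 4 falls (log2 from -0.17 to -0.11, edgeR adjusted p from 0.0873 to 0.139) and gave 4 members higher, Rps27l among them, and none lower. The median log2 fold change of the 61 members was -0.01, as it was for all 1136 genes tested. Leaving out a library gave 2 to 6 calls: 2 without library 1, 10, 12 or 14, and 3 without library 2, 7, 8, 9 or 16. No member was called in cells of 1000 to 3000 UMIs.

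Granule against lymphoid cells gave 4 of 60 members, with 10.5% of all genes called (4.68% higher, 5.85% lower). Besides Rps27l they included Rpl30, which fell by 0.25 (SE 0.08; lower in 11 of 15 libraries), and Rps9, which fell by 0.19 (SE 0.06; 10 of 15). With total-count scaling Rps27l alone was called, and Rpl30 and Rps9 stood at -0.19 and -0.12 (edgeR adjusted p = 0.192 and 0.175). The count was 0 without library 10 or 13, 1 without library 9, 12 or 14, and 2 without library 3, and 0 in cells of 1000 to 3000 UMIs. In lymphoid against stem cells 4 of 60 members rose and none fell, with 9.06% of all genes called (4.97% higher, 4.09% lower). Rps24 rose by 0.14 (SE 0.04), in 16 of 16 libraries, from a median of 6035 to 6624 CPM. Rpl4 rose by 0.16 (SE 0.05; 15 of 16) and Rps25 by 0.17 (SE 0.06; 12 of 16). This count was 0 without library 10, 1 without library 3, 9 or 14, and 2 without library 1, 2, 4, 5, 12, 15 or 16. Taking Adgrg1 out of the stem list, an alternative chosen after its share was seen, gave 2 members lower and none higher.

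In the megakaryocyte and erythroid gate 12 of 58 members were called against the stem gate (3 higher, 9 lower), a share of members close to the 21% of all genes (9.17% higher, 11.8% lower). The median member changed by -0.13 and the median of all 709 genes by -0.00. Rps24 had 4370 CPM in the lowest, 4980 in the median and 5982 in the highest of 10 libraries, and 5091, 5999 and 6499 in the stem gate. It was lower in 9 of 10 libraries, with a log2 fold change of -0.33 (SE 0.06, edgeR adjusted p = 8.79e-05). The pseudogene row Rps3a2 fell by 0.39 (SE 0.11), Rpl26 by 0.27 (SE 0.07), Rps15a by 0.25 (SE 0.07), Rps9 by 0.25 (SE 0.07), Rpl23 by 0.23 (SE 0.07) and Rpl35a by 0.22 (SE 0.08). Rps14 and Rps4x fell by 0.19 each. Rps2, at the mRNA entry of the small subunit, rose by 0.21 (SE 0.08; 9 of 10) and Rpl14 by 0.21 (SE 0.07; 10 of 10). Scaling by total counts put the median of all genes at 0.12 and that of the members at -0.00, with 6 members called higher and 1 lower. In cells of 1000 to 3000 UMIs (4 libraries) no member was called and Rps24, Rps15a and Rps4x stood at 0.04, 0.06 and 0.16; leaving out library 14 gave 7 calls. Erythrocyte and platelet genes, of which 6 of 7 had a UMI in this gate and Alas2 was at 0, summed to 0 to 4287 CPM over its libraries (median 96.5) and to 123 to 536 in the stem gate (median 295); their part in the result was not tested.

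Cells with mitotic transcripts were compared with cells that had none, within 1500 to 4000 UMIs. The 1120 cells with at least 3 UMIs from 16 genes such as Top2a, Mki67 and Ube2c had fewer ribosomal protein UMIs for their total than the 502 cells with 0. Their share was 10.9% ± 0.424 (SD, n = 16) against 11.5% ± 0.504, lower in 14 of 16 libraries. The mean difference was -0.603 points (SD 0.418; exact paired permutation test, two-sided, p = 0.000214, adjusted 0.000916). Within SB341 it was -0.512 points (n = 9) and within SB343 -0.732 (n = 6). Depth was not equal within the range, with a median of 2562 UMIs in mitotic cells and 1950 in the others. At 2000 to 4000 UMIs (2884 and 2454) the difference was -0.522 points (12 libraries, exact permutation adjusted p = 0.0479). At 2000 to 2500 UMIs (2261 and 2253), a range chosen after the depths were seen, 52 and 58 cells in 4 libraries were left and the difference was -0.153 points (lower in 2 of 4; the smallest p that 4 pairs allow is 0.125).

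By gene, 20 of 67 members were called, 19 lower and 1 higher, where 13% of all genes were called, 6.33% lower and 6.67% higher. The members' median log2 fold change was -0.13 and that of all 1800 genes -0.02; 60 of the 67 members lay below 0. Rps18, a small-subunit protein, had 2205 CPM in the lowest, 2699 in the median and 3228 in the highest library of mitotic cells and 2506, 3104 and 3555 in the others. It was lower in 16 of 16 libraries, by 0.27 (SE 0.04, edgeR adjusted p = 6.46e-08). Rpl32 had 3829, 4414 and 5346 CPM against 4348, 5116 and 6059, and fell by 0.26 (SE 0.04, adjusted p = 5.40e-09), in 15 of 16 libraries. Rpl10 fell by 0.26, Rps14 by 0.25, Rps9 by 0.24, Rpl23 by 0.23, Rpl38 by 0.22 and Rpl34 by 0.21, with SE from 0.04 to 0.07. Rpl37, Rps10 and Rps25 fell by 0.15 to 0.18. The stalk genes Rplp0 and Rplp1 fell by 0.14 and 0.13, and Rplp2 changed by -0.09 without passing the test.

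Rpl22l1, a paralog of Rpl22 that Rpl22 is known to repress (chr3:28805436-28807424), was the exception. It had 653 CPM in the lowest, 954 in the median and 1295 in the highest library of mitotic cells and 459, 732 and 971 in the others. It rose by 0.32 (SE 0.07, edgeR adjusted p = 0.000165), in 13 of 16 libraries, while Rpl22 fell by 0.14 (SE 0.04, adjusted p = 0.0107). With total-count scaling Rpl22l1 rose by 0.38 (edgeR adjusted p = 4.48e-06), and the fall of Rpl22 did not pass the threshold. As a family with its pseudogene rows Rpl22l1 rose by 0.24 (SE 0.06, adjusted p = 0.000972). All 20 called members were also called as families with the same sign, and 40 of 83 families were called, 39 of them lower, with 13.9% of all genes called in that fit.

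The filter and the UMI range changed these calls. Without the filter on low counts 10 members were called higher and none lower; that fit put the median of the 85 members tested at 0.09 and that of all genes at 0.24, so the members lay below the median of all genes in both fits. At 2000 to 2500 UMIs no member was called, with a median of -0.06 over 54 members. Total-count scaling left 7 lower and 1 higher, and Rpl22, Rplp0 and Rplp1 were not among the 7. The fits within SB341 gave 8 lower and 1 higher, and those within SB343 7 lower and none higher.

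**Figure D5:**
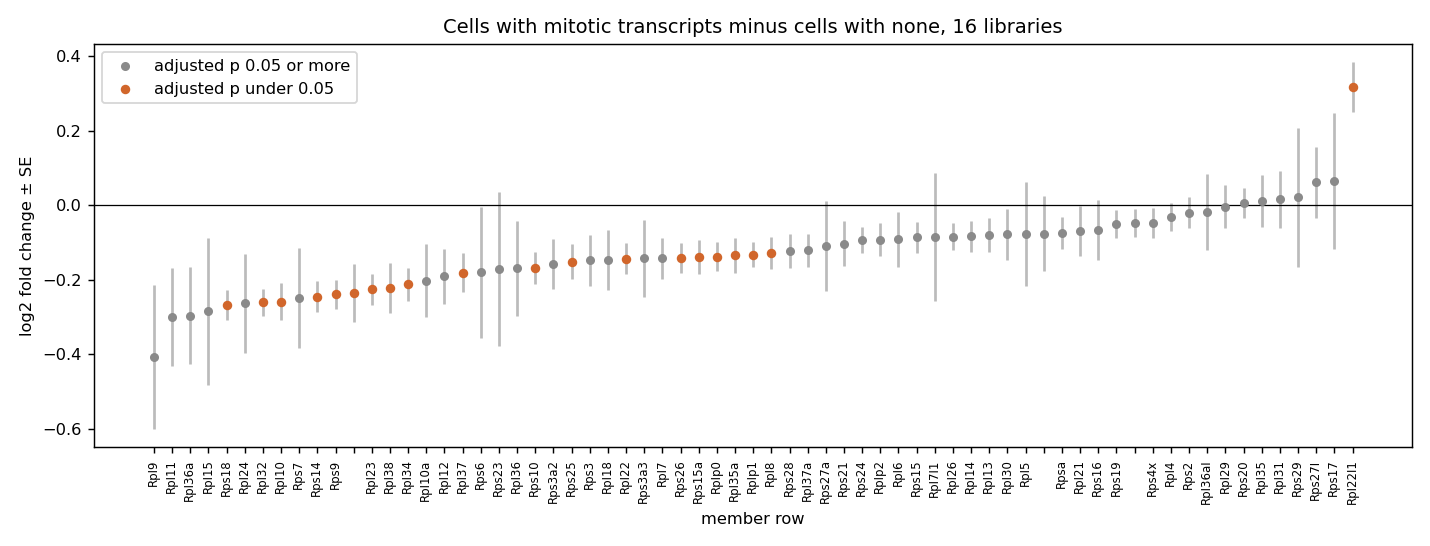
Points give the log2 fold change with its SE (vertical axis) between cells with mitotic transcripts and cells with none over 16 libraries for each of 67 members (horizontal axis, ordered by value, not all named), orange where the adjusted p was under 0.05. Rpl22l1 stands alone on the right at 0.32, and 60 of 67 points lie below 0.

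Other paralogs were less abundant than the genes they are named after, or showed no called change between cells. Rpl7l1, named after Rpl7, had 106 to 164 CPM over the libraries, against 1000 to 1431 for Rpl7, and its ratio of variance over libraries to counting variance was 1.34. Rpl39l, known from testis, had 13 UMIs, and Rps4l, a pseudogene row, had 196 against 29076 for Rps4x. Rpl3l had 1 UMI and Rpl10l none; 0 of 5157 cells held a Rpl10l UMI, which allows a share of up to 0.0582% of cells with a UMI (3 counts, counting error only) and sets no limit on cells that express it. Rpl36al exceeded Rpl36a on own rows, at 376 against 229 CPM over all cells, whereas the Rpl36a family held 18880 UMIs on pseudogene rows. Rpl36al fell by 1.72 between batches and lay between -0.02 and 0.18 in the 5 comparisons of cells, with no call.

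The members can be set beside other genes of the translation machinery. Rack1, which sits on the small subunit, fell by 0.17 (SE 0.04) in mitotic cells, and Fau, which carries a ribosomal protein fused to a ubiquitin-like protein, fell by 1.01 between batches. A list of 18 translation factors and other genes known for oligopyrimidine starts had 1 of 15 tested called in granule and 1 of 15 in lymphoid against stem cells. It had 2 of 15 in megakaryocyte and erythroid against stem cells and 1 of 16 in mitotic cells. The shares of all genes were 11.2%, 9.06%, 21% and 13%, and so few tested genes cannot show a difference from them. Npm1, a nucleolar chaperone of ribosome assembly, rose in the 3 gates against stem cells, by 0.24, 0.16 and 0.36. Eef1a1, the main elongation factor, fell by 0.22 in the megakaryocyte and erythroid gate, and Eif3f fell by 0.38 in mitotic cells. Between batches 8 of the 18 were called, 3 higher and 5 lower, where 12.6% of all genes were. Among them Tpt1 fell by 2.53 (SE 0.22) and Eef1b2, an elongation factor subunit, rose by 1.03 (SE 0.15). Of 40 ribosome biogenesis genes, Ncl, Nhp2 and Nop10 rose in the megakaryocyte and erythroid gate (3 of 7 tested, by 0.52 to 0.71, with 21% of all genes called), and Myc and Nhp2 in the granule gate (2 of 12 tested, by 0.47 and 0.50, with 11.2% of all genes called). In mitotic cells Myc, Ncl and Wdr12 fell (3 of 15 tested, by 0.30 to 0.68, with 13% of all genes called). Between batches 5 of 38 tested biogenesis genes were called, 3 higher and 2 lower, a share close to the 12.6% of all genes.

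Mitochondrial ribosomal protein genes, which serve a separate ribosome, were thinly covered. None of the 21 tested was called in mitotic cells, where their median was 0.10 against -0.13 for the cytosolic members. Mrpl52 fell against the stem gate by 0.66 in granule and 0.56 in lymphoid cells and rose by 0.80 in megakaryocyte and erythroid cells. Mrpl33 rose in granule cells by 0.45 against stem and 0.49 against lymphoid cells, and Mrpl30 rose by 0.62 against stem cells. In the batch comparison 2 of 74 were called, both higher, where 12.6% of all genes were.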

How the data were processed

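The authors deposited molecule (UMI) counts per gene and well, not normalized, per the file headers; a well table gives batch and cell number. The submitters' processing notes name bcl2fastq 2.15.0.4 and build mm10; the sources used here give no aligner, counting tool or annotation. The members, gene lists and tests were chosen with earlier results of these data known. Wells not listed as empty, with at least 500 UMIs and under 20% mitochondrial UMIs, were kept; spike-in rows were left out. Libraries held 521435 to 822534 UMIs over all wells. Where the well table lacks a library (library 1), cell number is unknown. No doublet caller was run, since wells were listed with at most 1 cell.

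Pseudogene rows were matched to members with blastn 2.17.0 on GENCODE transcripts of GRCm38 (mm10). Summed counts were tested in R 4.3.3 with edgeR 4.0.16 (TMM factors, filterByExpr, quasi-likelihood F test, library as a block for paired sums, Benjamini-Hochberg adjustment over all genes tested) and shares by exact paired permutation in Python 3.11.15 with scipy 1.17.1; the batch shares were permuted between libraries. The pairing comes from the library: both sums are of the same plate. The code was tested on simulated data. Alternatives were RLE factors, total counts, DESeq2 1.42.0, no low-count filter, no block, other cell filters and gates, and leaving out each library. Named are the 8 highest and 5 lowest members, the paralogs, up to 12 called members per direction, up to 4 called genes of other lists, and the 5 most and 3 least variable members. Rpl8, Rpl11, Rps13, Rpl28, Rpl39 and, for its spread, Rplp0 were named after their values were seen where the rule did not name them. A few genes that the rule names are not reported here.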

Additional observations from a re-analysis of the deposited data

Results flagged for a closer look

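In 60 groups of libraries of 1 sequencing batch, 3 values lay apart from the rest by Dixon's criterion, which chance alone meets in about 1 of 20 groups. Rpl13 had 294 CPM in library 15, where the other 5 libraries of batch SB343 had 752 to 982. Rps3a3 had 305 CPM in library 13 against 189 to 226 in the others of SB343. Rps27 had 166 CPM in library 2 against 51.3 to 108 in the other 8 libraries of SB341.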

How the results depend on the processing

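Counts of called members follow in the order granule minus lymphoid, granule minus stem, lymphoid minus stem, megakaryocyte and erythroid minus stem, and mitotic minus none (4, 5, 4, 12 and 20), given only where they moved by over 1.5 times. DESeq2 gave 1, 1, 2, 6 and 13, no low-count filter 0, 1, 1, 3 and 10, and no replicate block 0, 0, 0, 4 and 5. Total-count scaling gave 1, 2, 7 and 8 for the first and the last 3. Within SB341 they were 0, 2, 1, 0 and 9, and within SB343 0, 1 and 0 for the first 3 and 7 for the mitotic cells. Gates on thinned cells gave 1 for the first, and 0 and 5 for lymphoid and for megakaryocyte and erythroid against stem, cells of 1000 to 3000 UMIs 0, 0, 2 and 0, and a minimum of 1000 UMIs 2, 3 and 2. Lymphoid minus stem gave 2 at a minimum of 300 UMIs and at 3 list UMIs. The stem list without Adgrg1 gave 2, 2, 2 and 5. UMI ranges of 2000 to 4000 and 2000 to 2500 gave 8 and 0 in mitotic cells. Summed pseudogene rows gave 8 for the first and 40 for the last. Leaving out a library gave 0 to 4, 2 to 6, 0 to 4, 7 to 13 and 15 to 25, and 37 to 43 between batches, where 42 were called with all libraries. Adding the Adgrg1-free list, the narrow range and the summed pseudogene rows was decided after the data were seen.

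For the share, granule minus lymphoid turned to -0.00134 points with medians over cells, -0.0514 with pseudogene rows, -0.105 in cells of 1000 to 3000 UMIs and -0.186 within SB343. Granule minus stem missed the threshold at 0.159 (thinned), 0.540 (1000 to 3000 UMIs), 0.521 (no Adgrg1) and 0.446 (within SB343). Lymphoid minus stem missed it at 0.366 (3 list UMIs), 0.0524 (thinned), 0.291 and 0.632 (within SB341 and SB343). Megakaryocyte and erythroid minus stem passed it at -0.330 without mitochondrial genes and -0.340 with medians over cells, and turned to 0.238 in cells of 1000 to 3000 UMIs. Mitotic minus none missed it at -0.153 (2000 to 2500 UMIs) and -0.732 (within SB343). The batch difference passed it at -1.34 with -ps rows and -3.15 with all pseudogene rows. Without 1 library, the 6 differences ranged from 0.0124 to 0.177, 0.435 to 0.535, 0.312 to 0.449, -0.197 to -0.0699, -0.657 to -0.550 and -0.384 to -0.218. The median share over libraries was 12.4% without mitochondrial genes, 14.4% with -ps rows and 20.5% with all pseudogene rows.

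Single members changed sign as follows (log2). In the megakaryocyte and erythroid gate at 1000 to 3000 UMIs Rps24 was at 0.0437, Rps15a at 0.062 and Rps4x at 0.1646. In mitotic cells without the filter Rpl23 at 0.0035, Rpl38 at 0.0015, Rpl34 at 0.0126, Rpl37 at 0.0388, Rps10 at 0.0633 and Rps25 at 0.0772. At 2000 to 2500 UMIs Rpl38 was at 0.21 and Rpl34 at 0.0788. With pseudogene rows summed, Rpl19 was at -0.21, Rps12 at -0.25, Rpl13a at -0.25, Rps3a1 (without Rps3a2 and Rps3a3) at -0.54, Rps7 at -0.72, Rpl28 at -0.62 and Rpl39 at -0.63 between batches. The cause was not tested, except that fewer cells, libraries or genes enter the narrower settings by construction. Depth limits members with few UMIs: the 10 under 100 UMIs allow no comparison of cells. Shares of gates were compared only as paired differences.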
